A study of Mus musculus with 9 samples.

Results

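The contrast described here sets the P14 libraries of mouse cardiomyocytes against the mean of P1 and P56, on the log2 scale, for every gene. It serves to describe transcripts whose level peaks or dips 14 days after birth. Some genes that only climb or only decline with age are called in it too, so peaks and dips are defined separately below. Of the 15824 genes in the deposited count table, 15817 were tested, in all 9 libraries of the series. The mice were of the outbred CD-1 strain, and 3 libraries each came from postnatal day 1 (P1), P14 and P56. No genotype or treatment is named, and all 3 ages are labelled as total RNA of cardiomyocytes without ribosomal RNA. Each library was made from pooled hearts, 12 at P1 and 6 to 7 at P14 and at P56, so a library averages over animals and p-values measure the spread between pools. The labels' protocols cover both isolation of whole cells and a sort of nuclei bearing Pcm1, and do not settle which material gave each library.

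At P1 mouse cardiomyocytes still divide, run largely on glucose and lactate, and contract with fetal protein isoforms. In the weeks that follow they leave the cell cycle, enlarge, take up fat from milk as their main fuel and build transverse tubules, while capillaries and stroma expand around them. Thyroid hormone and glucocorticoids rise over the same weeks, and weaning on to solid food comes after P14. A library of P14 therefore samples a suckling heart in mid-transition between a newborn and an adult one.

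The P14 libraries were the shallowest, with 36619799 to 38878181 counts each, against 49190887 to 58538025 for those of P1 and 45866453 to 49535917 for those of P56. Levels below are CPM, counts scaled to library sizes that edgeR's TMM method adjusts, and differences are log2 values ± SE from one edgeR quasi-likelihood fit with n = 3 libraries per age, with p-values adjusted by Benjamini-Hochberg over the 15817 genes. Values for replicates are listed in the order 1, 2 and 3.

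Markers of other cell types were highest in the P14 libraries. The marker score, the mean log2 CPM of 75 measured markers of fibroblasts, endothelium, lymphatic endothelium, leukocytes, smooth muscle and pericytes, epicardium, nerve and red cells, ran from 1.96 to 3.19 at P14, against 0.86 to 1.33 at P1 and 0.26 to 1.29 at P56, so P14 did not overlap the other ages. Within P14 it ranked replicate 1 (3.19) above replicate 2 (2.67) and replicate 3 (1.96). Endothelial markers summed to 332 to 839 CPM at P14, against 106 to 148 at P1 and 60.4 to 148 at P56. Fibroblast markers summed to 247 to 899 CPM at P14, against 169 to 336 at P1 and 56.9 to 115 at P56, so here replicate 3 of P14 lay within the range of P1. Epicardial markers summed to 19.7 to 39.6 CPM at P14, below their 40.2 to 44.1 at P1 and above their 6.33 to 14.1 at P56, and leukocyte markers are given beside the interferon genes. Nerve markers overlapped between ages, at 7.84 to 11.1 CPM at P14, 9.22 to 11.0 at P1 and 8.22 to 10.6 at P56. So did red cell markers, at 6.1 to 16.1 CPM at P14, 11.2 to 14.0 at P1 and 7.13 to 10.5 at P56. None of the 75 markers had a count of 0 over the libraries of any age, and no adipocyte marker was in the table. Cardiomyocyte markers summed to 67510 to 101800 CPM at P14, against 57520 to 67700 at P1 and 63430 to 87640 at P56, and within P14 their order was the reverse of the marker score. In bulk libraries such as these, fewer cells of a type and less RNA per cell cannot be told apart.

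**Figure D1:**
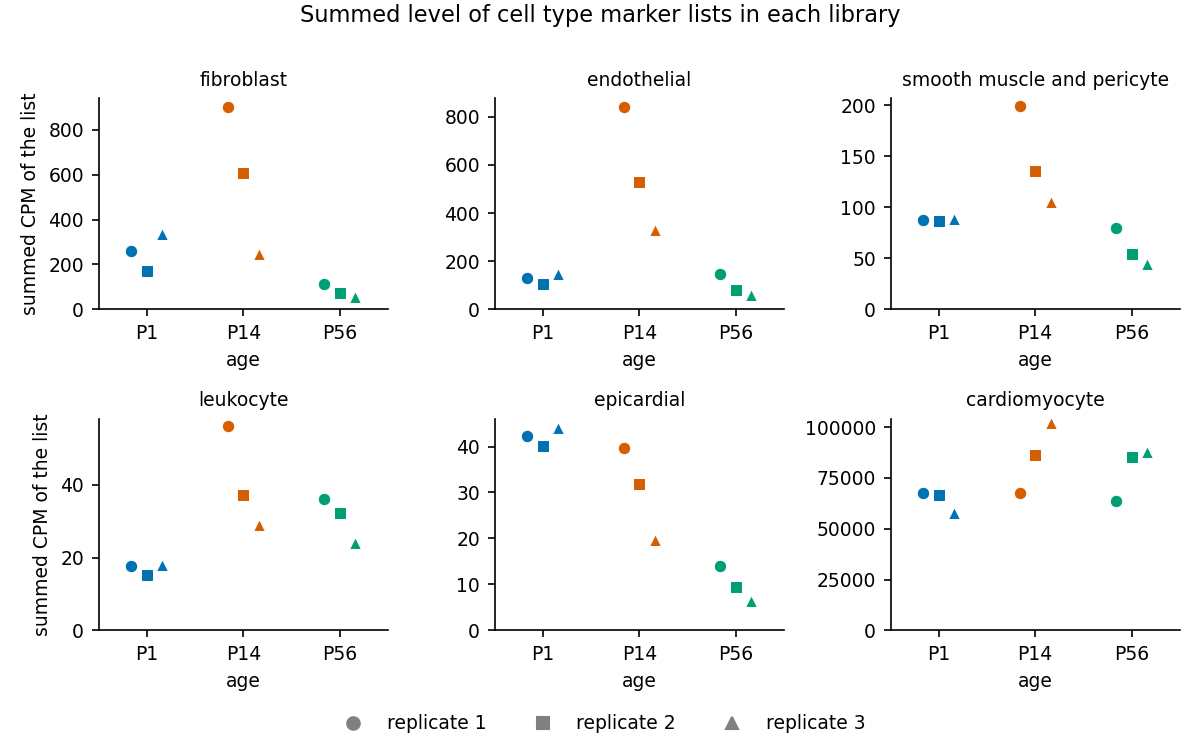
Summed CPM (vertical axes, from 0) of 5 lists of markers of other cell types and of the cardiomyocyte list, in each library by age, with the replicate number given by the symbol. Endothelial markers stand at 332 to 839 CPM in the P14 libraries and at no more than 148 in the other 6, and replicate 1 is the highest P14 library in every list of other cells shown and the lowest in the cardiomyocyte list.

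Because the score moves with the contrast, results are also given from a fit that holds the marker score beside age. The score of the P14 libraries did not overlap that of the other ages, so in that fit age and score are in part confounded. The part that other cells play in a given result was not tested.

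The contrast was called for 7916 of 15817 genes (50.0% of those tested), 4107 of them upward at P14 (26.0%) and 3809 downward (24.1%). Against a log2 difference of 1, 727 genes stood higher (4.6%) and 114 lower (0.721%). A contrast against a mean is also called for a gene that moves once and stays, so a peak was defined as a gene called upward whose P14 level was above P1 and above P56, each at an adjusted p under 0.05, and a dip as the mirror image. By this rule 1731 genes peaked (10.9%) and 1410 dipped (8.91%). All 3 P14 libraries lay above the other 6 in 1745 genes (11.0%) and below them in 1847 (11.7%). Of the other genes called upward, 997 stood above P1 only, 997 above P56 only, 362 lay between the other ages and 20 passed neither single comparison. Of the other genes called downward, 987 were below P1 only, 1047 below P56 only, 350 in between and 15 past neither. The shares of all genes to set beside the lists below are 26.0% upward, 24.1% downward, 10.9% peaks and 8.91% dips.

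At the median, peaks were taller than dips were deep. With height defined as the smaller of the P14 differences from the other ages, the median was 1.06 for peaks and −0.36 for dips, and 888 of 1731 peaks but 108 of 1410 dips reached a log2 of 1. Levels within P14 also differed: the highest P14 library exceeded the lowest by a median of 1.72-fold among peaks, 1.15-fold among dips and 1.29-fold over all genes. In 54.5% of peaks the 3 P14 libraries ranked as the marker score ranks them, against 22.6% of dips and 28.1% of all genes. With the score in the fit, 2705 genes were called upward (17.1%) and 2595 downward (16.4%), 643 of the 1731 peaks were still peaks and 654 of the 1410 dips were still dips. Peaks had a median transcript GC content of 53.8%, dips 44.2% and all genes 49.2%. An offset for GC content lowered the number of peaks to 1467 and of dips to 904. With that offset 1201 of the 1731 peaks were still peaks and 623 of the 1410 dips were still dips.

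**Figure D2:**
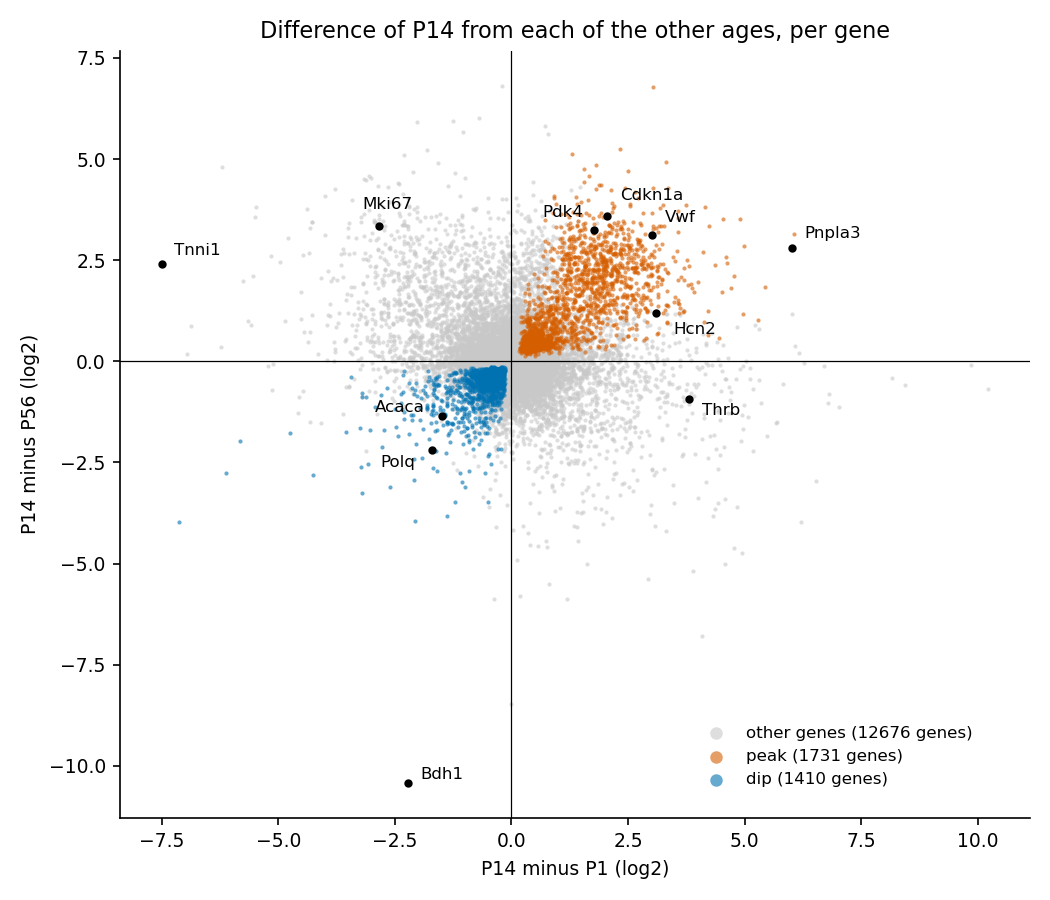
Difference of P14 from P1 (horizontal axis, log2) against its difference from P56 (vertical axis, log2) for all 15817 genes, with the 1731 peaks in orange, the 1410 dips in blue and 11 genes named in the text as black dots. Peaks fill the upper right and dips the lower left, and 888 peaks but 108 dips have a height of at least 1. Genes that change throughout, such as Tnni1 and Thrb, lie at the upper left and lower right.

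Endothelial genes peaked together. Vwf, the von Willebrand factor that endothelial cells store and release, stood at 5.42, 3.51 and 7.17 CPM at P1, 61.7, 42 and 26.3 at P14, and 7.95, 4.00 and 2.94 at P56. Every P14 library was above the other 6, and the contrast was 3.07 ± 0.33 (adjusted p = 9.7e-05). Pecam1, an adhesion molecule of endothelial junctions, peaked likewise at 30.4 to 72.5 CPM at P14, against 9.57 to 12.2 at P1 and 4.03 to 10.6 at P56. All 19 endothelial markers measured were peaks, with a median contrast of 2.4 against 0.00 over all genes, and all 19 ranked the P14 libraries as the marker score does, which is built in part from them. With the score in the fit the median was 0.46, and 8 of the 19 were called upward.

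Outside the marker lists, the 12 tallest peaks among genes of at least 10 CPM at P14 without overlap between P14 and the other libraries were Col5a3, Slc26a10, Mcf2l, Ushbp1, Pnpla3, Gfpt2, Arhgef15, Cd55, Notch4, Igfbp7, Pkhd1l1 and Egfr, with heights from 2.64 to 3.80. Col5a3 (chromosome 9, 20770050 to 20815067, minus strand, GRCm38) encodes a chain of type V collagen and stood at 0.775, 0.493 and 0.901 CPM at P1, 22.1, 11.1 and 5.77 at P14, and 1.81, 0.712 and 0.267 at P56. Its contrast was 3.98 ± 0.49 (adjusted p = 0.00018), and 0.98 (adjusted p = 0.021) with the score in the fit. Mcf2l, which encodes a guanine nucleotide exchange factor, stood at 6.48, 7.01 and 7.21 CPM at P1, 79.8, 54.7 and 36.3 at P14, and 8.11, 5.88 and 3.65 at P56. The contrast of Mcf2l was 3.16 ± 0.25 (adjusted p = 1.9e-05), and 1.63 (adjusted p = 0.00012) with the score. Notch4, a Notch receptor best known from endothelium, reached 9.05 to 19.2 CPM at P14, against 1.90 to 2.34 at P1 and 1.11 to 2.45 at P56. In 11 of the 12 genes the P14 libraries ranked as in the marker score, and the exception was Pnpla3.

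The epidermal growth factor receptor gene Egfr stood at 5.15, 3.09 and 4.90 CPM at P1, 47, 22.9 and 11.9 at P14, and 6.61, 3.51 and 3.01 at P56, and its contrast of 2.64 ± 0.38 (adjusted p = 0.00045) became 0.05 (adjusted p = 0.89) with the score in the fit. Gfpt2, which encodes an enzyme that feeds glucose into hexosamines, also missed the threshold with the score (0.56, adjusted p = 0.21), as did the complement regulator gene Cd55 (−0.01, adjusted p = 0.97). Under the same rule with the score in the fit, the 12 tallest peaks still called upward kept Col5a3, Slc26a10, Mcf2l, Ushbp1, Pnpla3, Arhgef15, Notch4, Igfbp7 and Pkhd1l1 and took in Fgd5, Pdgfb and Hspa12b. Fgd5 and Hspa12b are known from endothelium, and Pdgfb encodes the ligand by which endothelium recruits pericytes. Pdgfb stood at 8.00 to 16 CPM at P14, against 1.84 to 2.29 at P1 and 1.29 to 2.67 at P56. Slc26a10 overlaps B4galnt1, and Igfbp7 overlaps Polr2b, so their values may hold reads of those genes.

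Matrix genes divided. Of 24 genes of basement membrane and matrix, 17 were called upward, 1 downward and 9 were peaks (median contrast 1.21, and −0.07 with the score in the fit). Fbn1, which encodes the microfibril protein fibrillin-1, stood at 37.9, 24 and 40.8 CPM at P1, 181, 112 and 49.2 at P14, and 20.1, 10.1 and 7.75 at P56. Its P14 libraries spread with the marker score, and the contrast of 2.46 ± 0.38 (adjusted p = 0.00064) was −0.14 (adjusted p = 0.46) with the score. Hspg2, which encodes perlecan of the basement membrane, was steadier at 353, 345 and 355 CPM at P1, 583, 645 and 656 at P14, and 199, 234 and 200.0 at P56. The contrast of Hspg2 was 1.21 ± 0.06 (adjusted p = 2.9e-06), 1.33 (adjusted p = 2.7e-05) with the score and 0.76 (adjusted p = 6.4e-06) with an offset for GC content. The type IV collagen gene Col4a2 showed the same pattern (390.1 to 427 CPM at P14, against 218 to 241 at P1 and 165 to 176 at P56, contrast 1.07 ± 0.05, adjusted p = 1.7e-06, and 0.63, adjusted p = 7.8e-05 with the GC offset), though it overlaps its neighbour Col4a1. Lama5, which encodes a laminin chain, was the member called downward, at 50.9 to 68.4 CPM at P14, against 50.2 to 53.6 at P1 and 132 to 149.8 at P56 (contrast −0.50 ± 0.09, adjusted p = 0.0016, and −0.92, adjusted p = 1.4e-05 with the GC offset). With the GC offset, or without replicate 1 of P14, 2 members were downward.

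Fibroblast markers were all called upward (15 of 15, median contrast 1.80), but 7 of 15 were peaks. Col1a1, the main chain of type I collagen, stood at 55.1, 34.6 and 75.2 CPM at P1, 203, 145 and 48.9 at P14, and 11.4, 6.52 and 3.23 at P56. It was above P56 (4.23 ± 0.60, adjusted p = 0.00028) while its difference from P1 was 1.27 ± 0.52 (adjusted p = 0.061). Pdgfra, a receptor that marks fibroblasts, was a peak at 9.32 to 36.7 CPM at P14, against 4.79 to 8.27 at P1 and 3.27 to 7.18 at P56. With the score in the fit the fibroblast median was −0.46, and 3 members were called upward and 5 downward. These markers are part of the score, so their values in that fit are in part fixed in advance. Without replicate 1 of P14, 10 of the 15 were called upward. Of 13 leukocyte markers 8 were called upward and 1 was a peak. Csf1r, the receptor of macrophage growth factor, stood at 1.27 to 4.60 CPM at P14, against 0.644 to 0.98 at P1 and 1.18 to 2.31 at P56 and was past P1 only. Of 10 smooth muscle and pericyte markers 8 were called upward and 6 were peaks, among them the smooth muscle myosin gene Myh11 (7.20 to 8.79 CPM at P14, against 1.39 to 1.91 at P1 and 2.32 to 5.50 at P56). Of 8 epicardial markers 7 were called upward, 1 downward (Tbx18) and 6 were peaks. The peaks included Wt1, a factor of the epicardium (5.60 to 11.9 CPM at P14, against 2.75 to 3.40 at P1 and 0.512 to 1.36 at P56).

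**Figure D3:**
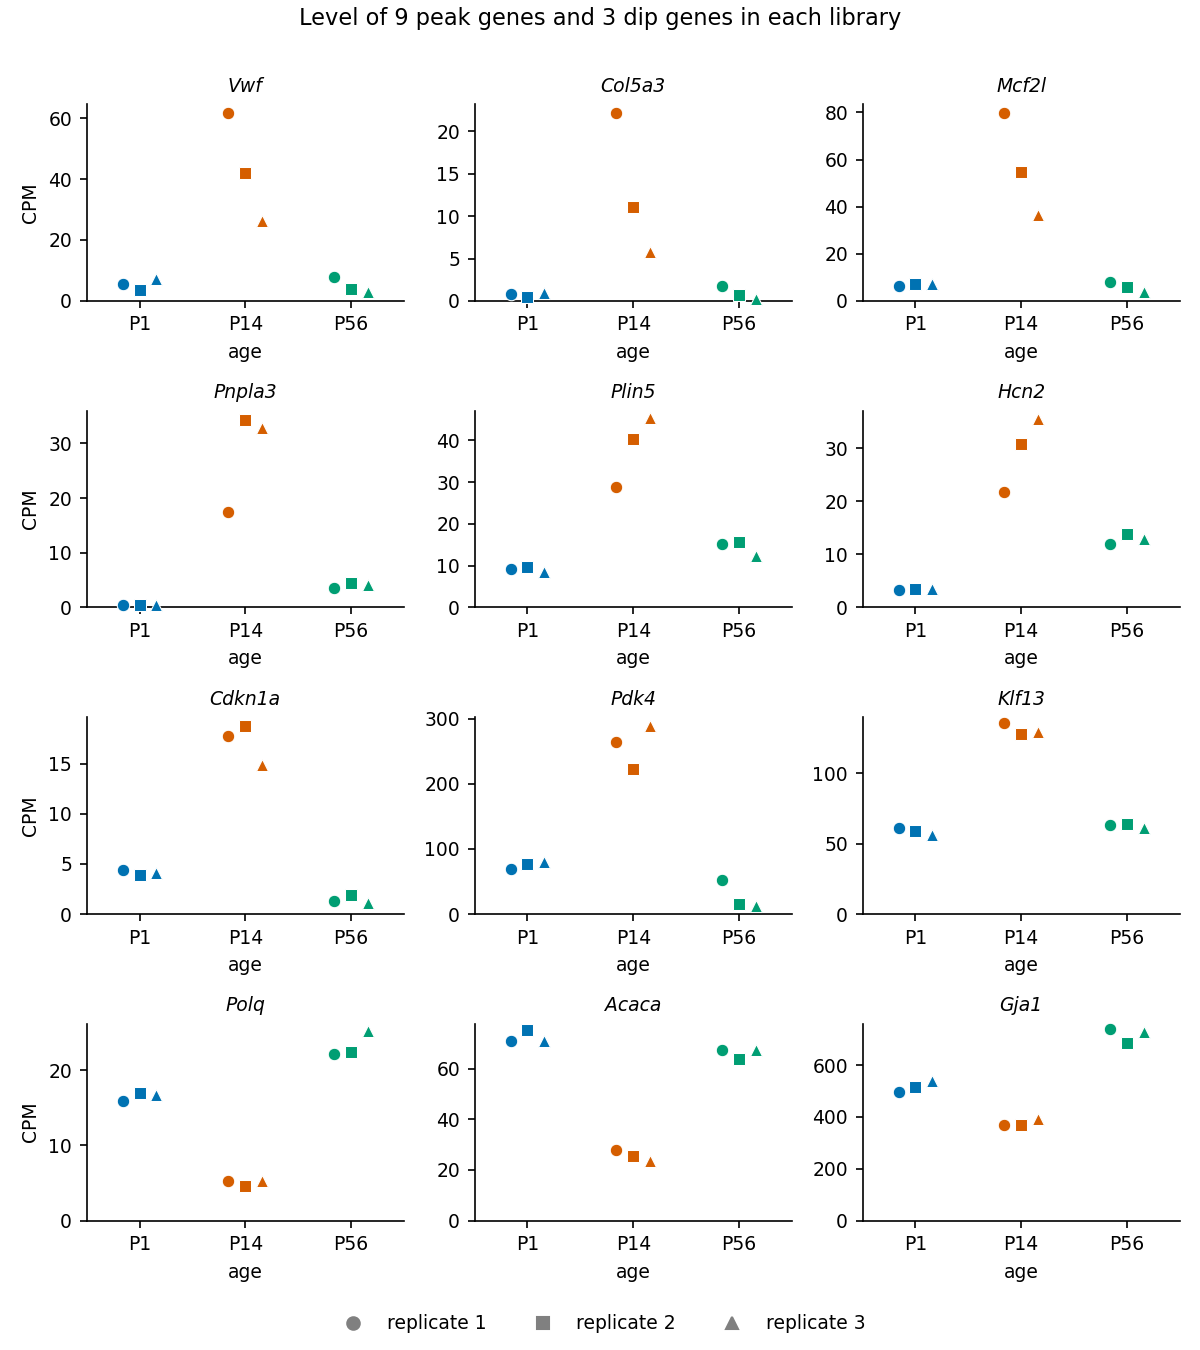
CPM (vertical axes, from 0) in each library by age for 9 peaks and 3 dips, with the replicate number given by the symbol. Vwf, Col5a3 and Mcf2l are highest in the P14 library of highest marker score (replicate 1) and lowest in that of lowest score (replicate 3), Pnpla3, Plin5 and Hcn2 are lowest in replicate 1, Cdkn1a, Pdk4 and Klf13 vary less within P14, and Polq, Acaca and Gja1 dip with little spread.

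Other peaks were steady among the P14 libraries or ran against the marker score. Outside the marker lists, 729 peaks met the level, overlap and name conditions above. In 351 of them the highest P14 library was less than 1.3-fold above the lowest. The median of that ratio was 1.32 for the 729 peaks and 1.29 over all genes, so they were about as steady as genes in general. In 325 (44.6%) the P14 libraries ranked in the reverse order of the score, against 27.2% of all genes. Of the 351 steady peaks, 298 were called upward with the score in the fit. The genes of this paragraph outside the naming rule, Klf13, Rgs7 and Itga9, were chosen after their values were seen. Klf13, which encodes a zinc finger factor of the Krüppel-like family, stood at 61.1, 59 and 56 CPM at P1, 136, 128 and 129 at P14, and 63.6, 64.1 and 61.4 at P56. The level at P14 was about the same in its 3 libraries and lay above all others, with a contrast of 1.11 ± 0.04 (adjusted p = 1.3e-06). Rgs7, a regulator of G protein signalling, stood at 142 to 178 CPM at P14, against 11.5 to 13.5 at P1 and 62.7 to 72.1 at P56. The integrin gene Itga9 stood at 211, 213 and 195 CPM at P1, 613, 768 and 851 at P14, and 232, 263 and 262 at P56, lowest at P14 in the library with the highest marker score, and its contrast was 1.71 ± 0.09 (adjusted p = 3e-06).

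Cdkn1a (chromosome 17, 29090976 to 29100727, plus strand, GRCm38) encodes the cyclin-dependent kinase inhibitor p21, which halts cells before replication and is a target of p53. It stood at 4.35, 3.87 and 4.09 CPM at P1, 17.7, 18.7 and 14.8 at P14, and 1.29, 1.88 and 1.09 at P56. No P14 library overlapped another age, and the contrast was 2.82 ± 0.14 (adjusted p = 2.3e-06), and 2.48 (adjusted p = 5.4e-05) with the score in the fit. The stress-responsive cell cycle gene Gadd45g (3.78 to 6.35 CPM at P14, against 1.67 to 2.10 at P1 and 1.08 to 1.47 at P56) and the p53 target Eda2r (3.75 to 4.98 CPM at P14, against 1.46 to 1.57 at P1 and 1.31 to 2.35 at P56) also peaked. With the score in the fit the contrast of Gadd45g was 1.98 (adjusted p = 0.0016), while that of Eda2r missed the threshold (0.62, adjusted p = 0.087). The list of p53 targets and inhibitors of cyclin-dependent kinases as a whole did not move one way. Of its 22 genes 8 were called upward, 3 downward and 4 were peaks, against 26.0%, 24.1% and 10.9% of all genes. The downward count was 6 without replicate 1 of P14 and 1 without replicate 2 or 3.

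Pnpla3, a lipid handling gene, was the one of those 12 peaks that did not follow the marker score. The gene (chromosome 15, 84167837 to 84187236, plus strand, GRCm38) encodes a lipid droplet protein related to adipose triglyceride lipase, and stood at 0.49, 0.36 and 0.432 CPM at P1, 17.4, 34.3 and 32.8 at P14, and 3.60, 4.43 and 4.10 at P56. Replicate 1 of P14 was the lowest of its age and still several-fold above every other library. The contrast was 4.41 ± 0.21 (adjusted p = 1.7e-06), and 5.20 (adjusted p = 1.9e-06) with the score. Its paralog Pnpla2, which encodes adipose triglyceride lipase itself, peaked more mildly at 22.6 to 25.8 CPM at P14, against 9.49 to 11 at P1 and 11.8 to 15.5 at P56 (contrast 1.03 ± 0.09, adjusted p = 4.2e-05).

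Of 28 genes known as targets of the fatty acid sensing PPAR receptors, 12 were called upward, 2 downward and 9 were peaks, with a median contrast of 0.24. Over all genes the shares were 26.0%, 24.1% and 10.9%. Pdk4, which encodes the kinase that shuts pyruvate dehydrogenase and so spares glucose, stood at 69.7, 76.1 and 80.2 CPM at P1, 264, 222 and 288 at P14, and 52.8, 16.1 and 12.3 at P56. Its P14 libraries lay close together and above the rest, while replicate 1 of P56 was well above the other P56 libraries, and the contrast was 2.52 ± 0.35 (adjusted p = 0.00038). The uncoupling protein gene Ucp2, which overlaps Dnajb13, stood at 34.4 to 42.4 CPM at P14, against 18.8 to 20.6 at P1 and 1.80 to 2.65 at P56, so it peaked and its P56 level was below that of P1. Ucp3, its muscle relative, peaked at 40.5 to 68.1 CPM at P14, against 22.4 to 27.2 at P1 and 15.1 to 30.0 at P56. Plin5, which encodes the perilipin that ties lipid droplets to mitochondria, stood at 9.26, 9.63 and 8.57 CPM at P1, 28.8, 40.3 and 45.3 at P14, and 15.2, 15.8 and 12.3 at P56. The contrast of Plin5 was 1.73 ± 0.13 (adjusted p = 1.6e-05). The peaks included the oxidation gene Ech1 (60.7 to 99.1 CPM at P14, against 42.8 to 46.7 at P1 and 47.2 to 55.3 at P56) but the list did not move as a whole: Hadhb, a subunit of the mitochondrial trifunctional protein, was called downward (−0.35 ± 0.09, adjusted p = 0.012), and Lpl, the lipase that frees fatty acids from lipoproteins, lay between P1 and P56 (249 to 293 CPM at P14, against 177 to 189.5 at P1 and 862 to 984 at P56). The Hadhb call was lost with an offset for GC content (−0.05, adjusted p = 0.7), and without replicate 2 of P14 (−0.29).

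Fatty acid synthesis genes did not move one way, but the gene of the enzyme that commits carbon to it dipped. Acaca (chromosome 11, 84129672 to 84401651, plus strand, GRCm38) encodes an acetyl-CoA carboxylase, which makes malonyl-CoA, the building block of fatty acid synthesis. It stood at 71.1, 75.2 and 70.7 CPM at P1, 27.9, 25.6 and 23.6 at P14, and 67.4, 63.9 and 67.2 at P56. The P14 libraries were all below the other 6 by more than the spread of any age, and the contrast was −1.43 ± 0.06 (adjusted p = 1.4e-06). Mlycd, which encodes the decarboxylase that removes malonyl-CoA, was a peak at 45.9 to 67.7 CPM at P14, against 43.5 to 46.5 at P1 and 26.1 to 31.4 at P56. Its contrast of 0.66 ± 0.11 (adjusted p = 0.00087) was 0.26 (adjusted p = 0.038) with the GC offset, and missed the threshold with the replicate block beside that offset (0.26, adjusted p = 0.058). Among 22 genes of fatty acid and triglyceride synthesis, 10 were called upward and 6 downward, against 26.0% and 24.1% of all genes. Acaca was the only dip in this list. Without replicate 2 of P14, 7 were called upward and 2 downward. Slc2a1, which encodes the glucose transporter GLUT1, dipped, with 11.6, 11.2 and 10.2 CPM at P1, 4.24, 5.03 and 6.01 at P14, and 15.6, 13.7 and 13.8 at P56. Its contrast was −1.30 ± 0.12 (adjusted p = 4e-05), and −1.11 (adjusted p = 0.0026) with the score in the fit. Of 20 glycolysis genes 4 were called upward and 5 downward, near the 26.0% and 24.1% of all genes. With the GC offset 1 was upward and 10 downward (median −0.09 without and −0.27 with that offset). The upward count was 8 without replicate 1 of P14 and 2 without replicate 2 or 3 of P14, any 1 P1 library or replicate 1 of P56. For the ketone enzyme gene Bdh1, the 3 P14 libraries held 4 counts in all, too few for a fold (0.027 to 0.0511 CPM at P14, against 0.142 to 0.208 at P1 and 40.4 to 62.1 at P56).

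Hormone-responsive genes peaked in part. Hr, a corepressor gene induced by thyroid hormone, stood at 0.79, 0.588 and 0.721 CPM at P1, 9.94, 13.6 and 16 at P14, and 8.47, 8.43 and 8.11 at P56. The P56 libraries stood below those of P14 and above those of P1, and the contrast was 2.44 ± 0.14 (adjusted p = 4.5e-06). The pacemaker channel gene Hcn2, also induced by thyroid hormone, stood at 3.21, 3.52 and 3.46 CPM at P1, 21.7, 30.8 and 35.5 at P14, and 12, 13.8 and 12.9 at P56. Its contrast was 2.15 ± 0.13 (adjusted p = 5.3e-06), and 2.74 (adjusted p = 3.4e-06) with the score. Of 15 thyroid hormone axis genes, 9 were called upward, 2 downward and 3 were peaks, against 26.0%, 24.1% and 10.9% of all genes. The median contrast of the list was 0.51, and 0.20 with an offset for GC content. The downward count was 1 with that offset, with the replicate block, and without replicate 2 or 3 of P14, replicate 1 or 2 of P1 or replicate 3 of P56. Thrb, a thyroid hormone receptor gene, was among those called upward although it rose throughout (861 to 1060 CPM at P14, against 66.5 to 69.9 at P1 and 1702 to 1918 at P56). The corepressor gene Ncor1 dipped slightly at 261 to 286 CPM at P14, against 314 to 322 at P1 and 344 to 358 at P56.

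Of 15 glucocorticoid target genes, 8 were called upward, 2 downward and 4 were peaks, against 26.0%, 24.1% and 10.9% of all genes (median contrast 0.60, and 0.30 with the GC offset). The downward count was 1 with that offset and without replicate 2 or 3 of P14, replicate 2 or 3 of P1 or replicate 3 of P56. Ddit4, which encodes an inhibitor of the growth kinase mTORC1, stood at 2.91, 2.92 and 3.13 CPM at P1, 10.1, 10.2 and 9.79 at P14, and 1.70, 2.62 and 1.87 at P56. The P14 libraries were within a narrow range far above the others, and the contrast was 2.01 ± 0.12 (adjusted p = 5.3e-06), and 2.04 (adjusted p = 0.00016) with the score. Sgk1, a kinase gene induced by corticosteroids, ranked the P14 libraries as the marker score does (1.88, 1.42 and 1.93 CPM at P1, 12.4, 7.22 and 4.30 at P14, and 1.86, 0.781 and 1.18 at P56). Its contrast of 2.42 ± 0.32 (adjusted p = 0.00026) was 0.50 (adjusted p = 0.28) with the score. Zbtb16, a zinc finger gene strongly induced by glucocorticoids, was higher at P14 than at P1 but not past the threshold against P56 (1068 to 2111 CPM at P14, against 129 to 177 at P1 and 996 to 1501 at P56). Nr3c2, the mineralocorticoid receptor gene, was called downward with P56 as the high age (551 to 572 CPM at P14, against 529 to 573 at P1 and 1295 to 1480 at P56).

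Most contractile genes ranked the P14 libraries against the marker score. Of 31 sarcomere and Z-disc genes, 13 were called upward, 4 downward and 4 were peaks, against 26.0%, 24.1% and 10.9% of all genes, so their share of peaks was near that of all genes. Their median contrast was 0.23, and 0.68 with the score in the fit. In 21 of the 31 the P14 libraries ranked in the reverse order of the score, against 27.2% of all genes. The number called upward depended on single libraries, with 20 without replicate 1 of P14 and 8 without replicate 2 or 3 of P14 or replicate 3 of P1. Myh6, the adult ventricular myosin heavy chain, stood at 2746, 2594 and 2502 CPM at P1, 4355, 6460 and 8375 at P14, and 3355, 4547 and 4700 at P56. Replicate 1 of P14 was below replicates 2 and 3 of P56, so the ages overlapped, and the contrast was 0.95 ± 0.18 (adjusted p = 0.0018), and 1.90 (adjusted p = 1.5e-05) with the score. Mybpc3, which encodes cardiac myosin-binding protein C, gave a contrast of 0.64 ± 0.16 (adjusted p = 0.0076) and, with an offset for GC content, 0.35 (adjusted p = 0.064). Myom2, a protein of the M-band, peaked without overlap at 1020 to 1190 CPM at P14, against 641 to 774 at P1 and 754 to 873 at P56. The kinase gene Speg, which organises junctions of the sarcoplasmic reticulum, peaked at 491 to 968 CPM at P14, against 274 to 313 at P1 and 379 to 554 at P56 (contrast 0.97 ± 0.18, adjusted p = 0.0018, and 0.45, adjusted p = 0.043 with the GC offset). Cardiac troponin I (Tnni3) gave a contrast of 0.52 ± 0.17 (adjusted p = 0.028), which was 0.26 (adjusted p = 0.18) with the GC offset and missed the threshold in every fit without 1 P1 library and in those without replicate 2 or 3 of P14 (0.34 to 0.52).

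Ion channel and calcium handling genes were called in both directions. Of 25 ion channel genes 13 were called upward, 8 downward and 3 were peaks, against 26.0%, 24.1% and 10.9% of all genes. Their share of peaks was near that of all genes. Scn10a, a sodium channel gene linked to conduction, was the dip at 0.46 to 0.772 CPM at P14, against 3.60 to 4.02 at P1 and 1.70 to 2.05 at P56. Of 22 dyad and calcium cycling genes 7 were called upward, 4 downward, 2 were peaks and 2 dips (median contrast 0.12). The share of dips over all genes was 8.91%. Without replicate 1 of P14, 11 were called upward. Speg, given above, was among those upward, and the members named next were called downward. Slc8a1, which encodes the sodium-calcium exchanger, dipped at 7131 to 7235 CPM at P14, against 15790 to 16810 at P1 and 8155 to 9550 at P56 (contrast −0.74 ± 0.07, adjusted p = 6.7e-05, and −0.47, adjusted p = 0.0025 with the GC offset), most of the difference being from P1. Cacnb2, a subunit of the L-type calcium channel, dipped at 2123 to 2470 CPM at P14, against 3751 to 4039 at P1 and 2952 to 3170 at P56, and its contrast of −0.56 ± 0.07 (adjusted p = 0.00022) was −0.25 (adjusted p = 0.07) with the GC offset. The phospholamban gene Pln was called downward with P56 as the high age (569 to 661 CPM at P14, against 684 to 720.4 at P1 and 1328 to 1594 at P56), by −0.70 ± 0.07 (adjusted p = 8.2e-05), and −0.40 (adjusted p = 0.0019) with the GC offset.

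Junction genes of the intercalated disc, where cardiomyocytes couple end to end, were called downward more often than upward. Of 14, 7 were called downward, 3 upward and 4 were dips, against 24.1%, 26.0% and 8.91% of all genes, although the median contrast was −0.09 and the GC offset left 6 downward. Only 1 was upward with the replicate block, or without replicate 3 of P14, any 1 P1 library or replicate 1 or 2 of P56. Gja1, which encodes the gap junction protein connexin 43, stood at 496, 515 and 538 CPM at P1, 368, 370.5 and 392 at P14, and 741, 686 and 728 at P56. All P14 libraries were below the other 6, with a contrast of −0.69 ± 0.05 (adjusted p = 1.5e-05), and −0.45 (adjusted p = 0.0003) with the GC offset. Cdh2, the N-cadherin gene, dipped at 3108 to 3207 CPM at P14, against 3841 to 4061 at P1 and 3714 to 4322 at P56 (contrast −0.33 ± 0.07, adjusted p = 0.0023, and −0.26, adjusted p = 0.13 with the score). Ctnna3, an alpha-catenin gene that overlaps Lrrtm3, dipped at 5260 to 5677 CPM at P14, against 8886 to 9671 at P1 and 6217 to 6640 at P56. Jup, the plakoglobin gene, was a peak (0.44 ± 0.10, adjusted p = 0.0049) but not with the GC offset (0.06, adjusted p = 0.6).

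Interferon-responsive and antigen presentation genes were mostly called upward, more of them past P1 alone than past both ages. Interferon signalling runs through factors that include Stat2 and Irf9, which bind the interferon-stimulated response element in promoters, and Nlrc5 activates the class I histocompatibility genes. Of 24 interferon-response genes, 19 were called upward, 1 downward and 9 were peaks (median contrast 1.34, and 1.59 with the score), with 11 above P1 only. Of 17 antigen presentation genes, 15 were called upward, none downward and 4 were peaks (median 1.96, and 2.19 with the score), with 11 of them above P1 only. None was called downward at an unadjusted p under 0.05 or by DESeq2 either. Leukocytes also express such genes, and their 13 markers summed to 29.0 to 56.1 CPM at P14, 15.4 to 17.9 at P1 and 24.1 to 36.1 at P56. Their part in these calls was not tested.

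Promoters of 3 interferon-response peaks are shown to mark this element. The sequences are the 250 bases before the annotated start from RefSeq (build GRCm38.p6), 5′ to 3′ on the gene's strand, with capitals at each match on either strand to GAAA, 2 free bases and GAAA.
Rsad2 (chr12:26456453-26456702, minus strand): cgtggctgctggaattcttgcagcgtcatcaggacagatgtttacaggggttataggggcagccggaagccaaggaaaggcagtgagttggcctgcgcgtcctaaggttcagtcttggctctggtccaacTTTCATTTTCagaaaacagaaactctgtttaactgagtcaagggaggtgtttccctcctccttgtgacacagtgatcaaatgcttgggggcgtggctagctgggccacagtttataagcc
Gbp2 (chr3:142620413-142620662, plus strand): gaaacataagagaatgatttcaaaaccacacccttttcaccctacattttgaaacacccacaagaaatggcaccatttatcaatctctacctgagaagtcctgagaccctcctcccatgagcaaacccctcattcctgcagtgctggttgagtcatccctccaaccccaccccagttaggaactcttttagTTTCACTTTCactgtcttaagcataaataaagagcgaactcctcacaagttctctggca
Stat2 (chr10:128270248-128270497, plus strand): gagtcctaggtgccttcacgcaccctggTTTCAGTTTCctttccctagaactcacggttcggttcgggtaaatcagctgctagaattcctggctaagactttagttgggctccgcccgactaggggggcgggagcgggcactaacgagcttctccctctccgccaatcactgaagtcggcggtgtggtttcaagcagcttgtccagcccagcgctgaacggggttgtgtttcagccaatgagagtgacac
The motif was in 10 of the 19 interferon-response genes with a promoter window, and in 332 of 10979 tested genes with one (3.02%). A match describes letters only.

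Stat2 stood at 9.38, 9.15 and 8.83 CPM at P1, 18.9, 16.3 and 21.7 at P14, and 7.77, 15.9 and 13.6 at P56. Its P14 libraries were all above the rest, replicate 1 of P56 was the lowest of all, and the contrast was 0.83 ± 0.18 (adjusted p = 0.0044). Rsad2, which encodes the antiviral enzyme viperin, stood at 0.205, 0.0569 and 0.234 CPM at P1, 2.94, 1.16 and 1.74 at P14, and 0.612, 0.666 and 0.646 at P56. The contrast of Rsad2 was 2.56 ± 0.34 (adjusted p = 0.00028), and 1.72 (adjusted p = 0.051) with the score. The guanylate-binding protein gene Gbp2 stood at 1.63 to 4.62 CPM at P14, against 0.0948 to 0.108 at P1 and 0.602 to 0.85 at P56, with replicate 1 highest at P14, and a contrast of 3.26 ± 0.36 (adjusted p = 0.00011). Irf9 peaked at 8.71 to 9.15 CPM at P14, against 6.47 to 7.12 at P1 and 5.28 to 6.86 at P56, and it overlaps Rnf31. Ifit2 was called downward, with P1 as its high age (4.57 to 6.08 CPM at P14, against 9.15 to 10.6 at P1 and 4.48 to 5.07 at P56), but not without replicate 2 of P14 (−0.31) or with the GC offset (−0.16, adjusted p = 0.21).

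The class I gene H2-D1 stood at 1.49, 0.967 and 2.32 CPM at P1, 27.3, 15.5 and 27.3 at P14, and 5.62, 10.2 and 4.34 at P56. Its contrast was 2.83 ± 0.30 (adjusted p = 9.1e-05), and 2.65 (adjusted p = 0.0033) with the score. H2-K1 peaked at 9.49 to 15.9 CPM at P14, against 0.929 to 1.26 at P1 and 2.63 to 9.62 at P56, and H2-Q4 at 6.43 to 14.3 CPM at P14, against 0.955 to 1.35 at P1 and 1.05 to 3.67 at P56. These genes are close copies of one another, so reads may have been split among them. Nlrc5 stood at 0.696, 0.455 and 0.522 CPM at P1, 31.5, 29.7 and 49.4 at P14, and 2.51, 23.9 and 23.1 at P56. It was above P1 in every library, but with replicate 1 of P56 far below the other P56 libraries it was not a peak (1.16 ± 0.59, adjusted p = 0.12 against P56).

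Among dips that met the conditions for naming, the deepest was in Polq, a DNA repair gene. By the same conditions, with at least 10 CPM at P1 and at P56, the 12 deepest were Polq, Gpr137c, Polr3g, Hsph1, Clcn1, Acaca, Mblac2, Ntm, Kif26b, Slc2a1, Zfp275 and Epb41l5, with heights from −1.70 to −1.06. All but Hsph1 were called downward with the score in the fit. Polq (chromosome 16, 37011786 to 37095417, plus strand, GRCm38) encodes DNA polymerase theta, which joins broken ends at short homologies, and stood at 15.9, 17 and 16.7 CPM at P1, 5.29, 4.65 and 5.27 at P14, and 22.1, 22.4 and 25.1 at P56. The P14 libraries held less than the lowest of the others by a wide margin, and the contrast was −1.95 ± 0.08 (adjusted p = 1.3e-06). Gpr137c, which overlaps Txndc16, stood at 8.41 to 10.0 CPM at P14, against 25.9 to 30.1 at P1 and 28.4 to 30.6 at P56. Polr3g, which encodes a subunit of RNA polymerase III, stood at 4.46 to 5.49 CPM at P14, against 13.5 to 15.4 at P1 and 13.1 to 17.1 at P56. Clcn1, the chloride channel gene of skeletal muscle, stood at 7.38 to 10.7 CPM at P14, against 22.9 to 25.8 at P1 and 39 to 50.7 at P56 and overlaps Fam131b. Kif26b, a kinesin family gene, stood at 240.1, 247 and 226 CPM at P1, 59.3, 73.3 and 70.3 at P14, and 128, 152 and 164 at P56. The contrast of Kif26b was −1.47 ± 0.10 (adjusted p = 7.7e-06), with P56 back to about the middle between P14 and P1. Epb41l5, which links membranes to the cytoskeleton, stood at 62, 64.8 and 64.5 CPM at P1, 31.2, 30.3 and 30.0 at P14, and 69.1, 65.3 and 67.4 at P56, and its contrast was −1.10 ± 0.05 (adjusted p = 1.3e-06).

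Chaperone genes were called downward more often than upward. Heat shock genes, which refold proteins in the cytosol, were called downward in 8 of 16 cases and upward in 1, with 5 dips. Over all genes the shares were 24.1%, 26.0% and 8.91%. The median contrast of the heat shock genes was −0.74. With the score in the fit the median was −0.56 and 1 was called downward. The upward call was lost with the GC offset and without replicate 2 or 3 of P14, replicate 1 or 2 of P1 or replicate 1 or 3 of P56, and 2 were upward without replicate 1 of P14. Hsph1, which encodes a partner of Hsp70, stood at 22.6, 21.5 and 48.4 CPM at P1, 6.82, 6.33 and 5.43 at P14, and 8.47, 25.5 and 16.3 at P56. The P1 and P56 libraries scattered widely, replicate 3 of P1 being the highest, and the contrast was −1.87 ± 0.38 (adjusted p = 0.0029), and −1.88 (adjusted p = 0.088) with the score. Cryab, the small heat shock protein gene of muscle, overlaps Hspb2 and stood at 16.6 to 19.4 CPM at P14, against 21.9 to 35 at P1 and 42.1 to 59.8 at P56.

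Of 20 genes of protein folding in the endoplasmic reticulum, 10 were called downward, 1 upward and 3 were dips. Over all genes the shares were 24.1%, 26.0% and 8.91%. The median of the list was −0.28, and −0.81 with the score. Without replicate 2 or without replicate 3 of P14, or with the GC offset, 6 were called downward, and 2 were upward without replicate 3 and 3 with that offset. Many carry the endoplasmic reticulum stress element, through which the unfolded protein response acts. The promoters of Hspa5 and Canx, both dips, are given as above, with capitals at each match on either strand to CCAAT, 9 free bases and CCACG.
Hspa5 (chr2:34771840-34772089, plus strand): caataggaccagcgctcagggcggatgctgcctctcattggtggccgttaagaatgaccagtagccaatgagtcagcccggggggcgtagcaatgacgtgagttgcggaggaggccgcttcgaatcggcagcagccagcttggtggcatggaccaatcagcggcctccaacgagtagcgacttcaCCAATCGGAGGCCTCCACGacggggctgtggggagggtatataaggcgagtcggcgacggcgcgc
Canx (chr11:50325674-50325923, minus strand): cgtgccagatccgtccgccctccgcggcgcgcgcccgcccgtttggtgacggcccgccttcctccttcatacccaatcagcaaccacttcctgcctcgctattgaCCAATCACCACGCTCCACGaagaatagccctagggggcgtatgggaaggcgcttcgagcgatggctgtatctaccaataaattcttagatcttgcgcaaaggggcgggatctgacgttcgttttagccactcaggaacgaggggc
The element was in 8 of 17 genes of the list with a window and in 17 of 10979 tested genes (0.155%). Canx, which encodes the lectin chaperone calnexin, stood at 103, 106 and 121 CPM at P1, 79.5, 69 and 72.7 at P14, and 96.1, 89 and 93.8 at P56. The P14 libraries were below the other 6, with a contrast of −0.46 ± 0.07 (adjusted p = 0.00056), and −0.22 (adjusted p = 0.0096) with the GC offset. Hspa5, the master chaperone BiP, gave −0.46 ± 0.13 (adjusted p = 0.018), a call that was lost with the GC offset (−0.30, adjusted p = 0.081) and without replicate 2 (−0.43) or 3 (−0.40) of P14. Hyou1 was the member called upward (15.8 to 18.9 CPM at P14, against 13.8 to 16 at P1 and 11.6 to 13.8 at P56).

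Genes of cholesterol synthesis were called downward in 16 of 22 cases and upward in none, with 5 dips and a median of −0.60 (−1.05 with the score). DESeq2, and edgeR at an unadjusted p under 0.05, called none upward either, and 1 was called upward with the GC offset or without replicate 3 of P14 or replicate 1 of P56. This pathway turns acetyl-CoA into sterols under the control of SREBP factors. Another 8 were below P1 only. Fdft1, which encodes squalene synthase and overlaps Ctsb, stood at 29.1, 29.7 and 32.5 CPM at P1, 9.89, 9.36 and 9.55 at P14, and 16.1, 13.5 and 13.6 at P56. It dipped below both ages, with differences of −1.67 ± 0.09 (adjusted p = 6.5e-07) from P1 and −0.59 ± 0.09 (adjusted p = 0.00048) from P56. Cyp51, which overlaps Akap9, was a dip at 5.70 to 6.57 CPM at P14, against 21.5 to 29 at P1 and 7.68 to 9.89 at P56, and Insig1, the sterol-sensing anchor of SREBP, another at 3.67 to 5.44 CPM at P14, against 13 to 15.2 at P1 and 5.30 to 8.56 at P56. Sqle was between the ages (0.511 to 0.838 CPM at P14, against 7.49 to 8.81 at P1 and 0.111 to 0.204 at P56). Its call was lost without replicate 1 of P14 (−0.61) or replicate 1 of P56 (−0.62). In the 250 bases upstream, the sterol element (TCAC, 1 free base and CCAC, read on both strands) was in 1 of 16 genes of the list with a window, against 1.28% of tested genes, and CCAAT in 16 of 16, against 39.7%.

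Most DNA replication genes were called downward, few of them as dips. Of 32 DNA replication genes, 20 were called downward, none upward (also none by DESeq2 or at an unadjusted p under 0.05) and 3 were dips (median −0.56, and −1.07 with the score). Ccne1, which encodes the cyclin that starts S phase, stood at 2.12, 1.84 and 2.22 CPM at P1, 0.204, 0.325 and 0.221 at P14, and 0.838, 0.827 and 0.78 at P56. It was a dip, as was Pole, the leading-strand polymerase gene (2.29 to 3.40 CPM at P14, against 13.6 to 14.4 at P1 and 4.71 to 4.73 at P56, contrast −1.54 ± 0.12, adjusted p = 2e-05). The origin recognition gene Orc1 was also called downward, with P14 between the other ages (0.276 to 0.622 CPM at P14, against 5.96 to 7.31 at P1 and 0.207 to 0.334 at P56). Of 34 replication-dependent histone genes 14 were called downward, none upward (none by DESeq2 or at an unadjusted p under 0.05) and 4 were dips (median −0.69). Without replicate 2 or without replicate 3 of P14 the histone calls downward numbered 7, without replicate 3 of P1 they numbered 9, and without replicate 3 of P14 2 were upward. Of 30 mitosis genes, 3 were called downward and none upward, with a median of 0.01. DESeq2 also called none of them upward, 3 were upward at an unadjusted p under 0.05, and 5 were called upward without replicate 3 of P14, 1 without replicate 1 of P14 or replicate 1 of P56 and 2 with the GC offset, while 6 were called downward without replicate 1 of P14. With the score in the fit the mitosis median was −1.10. Mki67, which marks cycling cells, stood at 51.8, 49.6 and 49 CPM at P1, 9.74, 7.00 and 4.08 at P14, and 0.861, 0.918 and 0.267 at P56, with a contrast of 0.25 ± 0.29 (adjusted p = 0.5). Its P14 libraries ranked as the marker score does, and with the score in the fit it was −1.23 (adjusted p = 0.021).

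**Figure D4:**
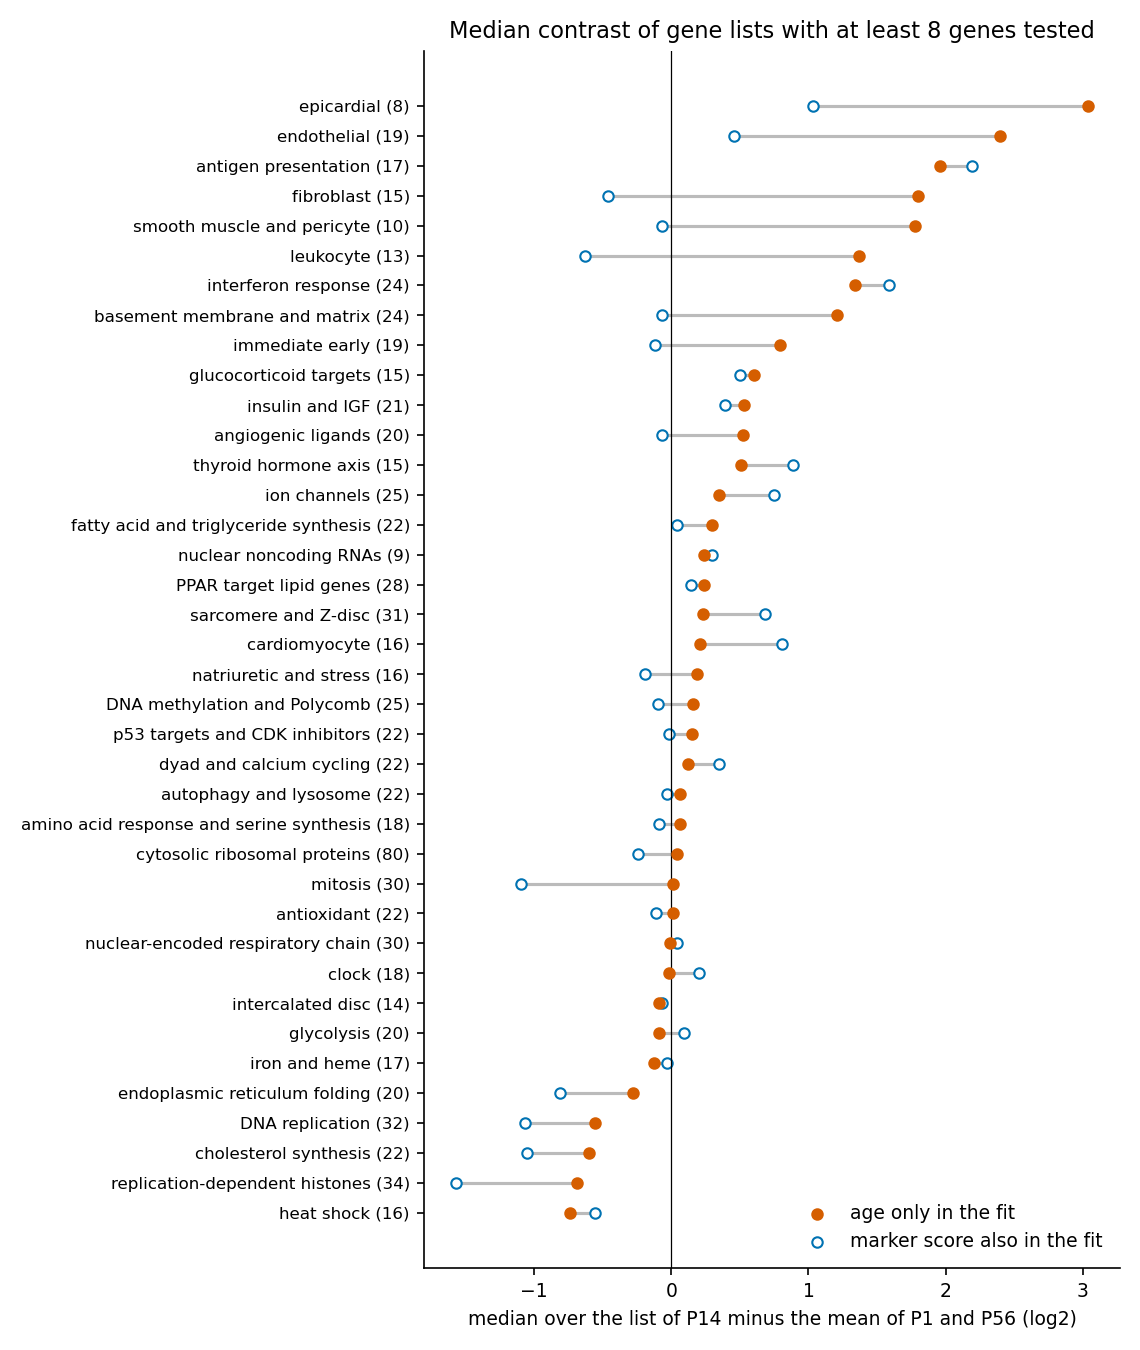
Median contrast (horizontal axis, log2) of each gene list with at least 8 genes tested, with age alone in the fit (filled orange) and with the marker score beside age (open blue), and the number of genes in brackets. Lists of other cell types make up the score, so their move when it is in the fit is in part fixed in advance. They and the matrix list move by more than 1 towards or past 0. Interferon response and antigen presentation genes do not, and cholesterol synthesis, replication and histone genes lie further below 0. The mitosis median moves from 0.01 to −1.10.

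Genes called in the contrast need not be extreme at P14. Levels are averaged as logarithms, so a gene that nearly vanishes at one age can be called with P14 between the others. Tnni1, the fetal troponin I gene, stood at 244, 230.1 and 230.5 CPM at P1, 1.64, 1.32 and 0.91 at P14, and 0.204, 0.276 and 0.245 at P56. It was called downward (−2.54 ± 0.20, adjusted p = 2e-05) although P14 was above P56. The imprinted growth factor gene Igf2 stood at 72.6, 60.4 and 80.2 CPM at P1, 50.5, 31.7 and 21.2 at P14, and 1.11, 0.689 and 0.245 at P56, and was called upward (2.31 ± 0.30, adjusted p = 0.00027) although the log2 of P14 over the arithmetic mean of P1 and P56 was −0.06. The neighbouring imprinted RNA H19 had the same signs, with 2.34 in the contrast and −0.27 over the arithmetic mean. Both ranked the P14 libraries as the marker score does. The fetal myosin gene Myh7 was below P1 and not different from P56 past the threshold (95.7 to 178 CPM at P14, against 535 to 557 at P1 and 89.5 to 126 at P56), with a contrast of −0.84 ± 0.17 (adjusted p = 0.0032), and 0.09 (adjusted p = 0.65) with the score.

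Pcm1 itself, used to sort cardiomyocyte nuclei, dipped, with 242, 252 and 250.3 CPM at P1, 147, 128 and 134 at P14, and 177, 169 and 174 at P56. Every P14 library was below the other 6, and its contrast was −0.60 ± 0.05 (adjusted p = 3.5e-05), −0.70 (adjusted p = 0.00062) with the score in the fit and −0.35 (adjusted p = 0.00016) with the GC offset.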

How the data were processed

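The authors deposited raw counts per gene and library as one table. The tools were featureCounts 1.4.2, STAR 2.4.0g1 and bcl2fastq 2.17.1.14, with build GRCm38, per the submitters' processing notes. Intron and strand settings are not given in the sources used here, and 8809 of 15824 genes overlap another gene. Counts were fitted with edgeR 4.0.16 in R 4.3.3 (filterByExpr, TMM, glmQLFit with age as the only term, all 9 libraries, glmTreat for a log2 of 1, Benjamini-Hochberg adjustment at 0.05, two-sided). The code was tested on simulated data. Alternatives were DESeq2 1.42.0 and those of the closing section. Gene positions came from GENCODE M21, and promoter windows from RefSeq, which matched 10979 tested symbols.

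Named genes are Pcm1, Myh6, Myh7, Tnni1, Tnni3 and Mki67, the 12 tallest peaks and 12 deepest dips (at least 10 CPM, no overlap of P14 with the other libraries, established symbol, outside the marker lists), the 12 tallest peaks still called upward with the marker score, and up to 3 members per direction of each of 44 lists with the largest contrast, plus members given as not past the threshold. The text names some of these, and some are not reported here. Other list members, and Klf13, Rgs7 and Itga9, were chosen after their values were seen. The contrast, lists and members were chosen with earlier results of these data known, so lists are described by counts and medians and not tested.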

Additional observations from a re-analysis of the deposited data

How the results depend on the processing

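Counts of calls kept within 1.5-fold of the reported ones with RLE size factors, no filter on low counts and the replicate block. A minimum of 5 CPM in 3 libraries, which tests fewer genes, left 283 genes higher and 63 lower past a log2 of 1 (reported 727 and 114), and DESeq2 gave 482 higher. The marker score left 2705 called upward, with 192 higher and 60 lower past a log2 of 1. Dips numbered 904 with the GC offset and 842 with the replicate block and GC offset together. Leaving out libraries gave 1998 to 4224 genes called upward, 1576 to 3958 called downward, 627 to 1889 peaks, 472 to 1667 dips, and 29 to 1059 higher and 13 to 118 lower past a log2 of 1. The low ends all came from leaving out replicate 2 of every age, which leaves 6 libraries. Without replicate 3 of every age 748 dips and 2473 downward calls remained, and without replicate 2 of P14 478 genes were higher past a log2 of 1. Beyond the smaller designs, the cause was not tested.

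With the marker score the sign turned for Myh7 (0.09), Mki67 (−1.23), Cd55 (−0.01), Col1a1 (−0.26), Pdgfra (−0.68), Csf1r (−0.74), Fbn1 (−0.14) and Klf4 (−0.01). Col1a1, Pdgfra and Csf1r are themselves part of the score. Against the arithmetic mean it turned for H19 (−0.27), Igf2 (−0.06) and Mki67 (−1.87). Mki67, not called, ranged from −0.08 to 0.52 as libraries were left out.

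Deviations from the age means correlated between −0.219 and 0.493 for same-numbered libraries and between −0.479 and 0.299 for differently numbered ones. Between P14 and P56 the same-numbered values were 0.493, 0.008 and 0.364 for replicates 1, 2 and 3. Replicate 1 of P14 with replicate 3 of P56 gave −0.383, and replicate 3 of P14 with replicate 1 of P56 gave −0.479. Whether replicate numbers pair the libraries was not tested. With the replicate block 1818 genes peaked and 1329 dipped, and no named gene changed its call. The P14 libraries were the shallowest, so small differences of genes with few counts are least certain there.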

Other observations

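Genes of growth signalling were called in both directions. Of 21 genes of insulin and IGF signalling, 14 were called upward, 3 downward and 7 were peaks, against 26.0%, 24.1% and 10.9% of all genes (median contrast 0.53, against 0.00 over all genes). Irs1, which encodes an adaptor of the insulin receptor and was chosen after its values were seen, stood at 186, 182 and 193 CPM at P1, 312, 312 and 332 at P14, and 218, 268 and 232 at P56. Its P14 libraries were all above the rest, with a contrast of 0.59 ± 0.06 (adjusted p = 9.8e-05). Grb10, an imprinted brake on the same receptors, lay between the ages at 623 to 636 CPM at P14, against 1738 to 1845 at P1 and 389 to 413 at P56. Of 20 angiogenic ligands, 10 were called upward, 5 downward, and 5 peaked and 2 dipped, against 8.91% of all genes for dips and the shares just given for the rest. Nrg1, the neuregulin that endothelium presents to cardiomyocytes, stood at 4.93, 3.32 and 7.08 CPM at P1, 39.8, 23.6 and 13.7 at P14, and 5.19, 3.86 and 2.45 at P56. It ranked the P14 libraries as the marker score does, and its contrast of 2.54 ± 0.33 (adjusted p = 0.00027) was 0.39 (adjusted p = 0.24) with the score in the fit. Sema3a, a guidance cue of cardiac nerves, dipped, with 17.9, 18.8 and 20.0 CPM at P1, 13.1, 12 and 9.99 at P14, and 20.2, 22.3 and 22.7 at P56 (contrast −0.79 ± 0.09, adjusted p = 0.00015), while Angpt1, a ligand of endothelial Tie2, was called downward with P56 as the high age (84.6 to 104 CPM at P14, against 75.6 to 83 at P1 and 273 to 390.1 at P56), by −0.82 ± 0.12 (adjusted p = 0.0004), and −0.52 (adjusted p = 0.0046) with the GC offset.

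Of 19 immediate early genes, 12 were called upward, 2 downward and 5 were peaks, against 26.0%, 24.1% and 10.9% of all genes. The median of the list was 0.79, and −0.12 with the score. Klf2, a factor induced by blood flow in endothelium, stood at 0.838, 0.91 and 1.53 CPM at P1, 7.67, 5.95 and 2.73 at P14, and 1.34, 0.918 and 0.98 at P56 and ranked as the marker score does, as did Klf4 (2.51 to 6.52 CPM at P14, against 1.38 to 1.85 at P1 and 1.05 to 1.65 at P56). Ier3 was a dip at 1.15 to 1.60 CPM at P14, against 2.27 to 2.94 at P1 and 2.66 to 3.08 at P56. Of 7 mitochondrially encoded genes 4 were called upward, 7 with the GC offset or without replicate 3 of P14, and 2 without replicate 1 or 2 of P14, replicate 2 or 3 of P1 or replicate 2 of P56. With the score in the fit none was called upward and 1 downward (median −0.17, and 0.43 with age alone). All genes whose symbol starts with mt- held 2.20%, 1.49% and 0.98% of all counts in the P14 libraries, in the order of the marker score. That share was 1.09%, 0.99% and 1.25% at P1, so replicate 3 of P14 lay below every P1 library. At P56 it was 0.73%, 0.38% and 0.38%.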
